A study of Mus musculus with 18 samples.

Results

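The heart part of the series set endothelial cells of the region labelled LV, 3 libraries, against the 9 libraries of the regions labelled Apex, VS and OR, pooled as one side. Libraries were assigned to the sides by label: 3 LV libraries and 9 others, 12 heart libraries of the 18 in the series. This choice of members, and that of the gene lists, was made with earlier results of these data known. All 4 heart groups, LV, Apex, VS and OR, with 3 libraries each, held endothelial cells from WT adult male mouse hearts in homeostasis, with no transgene, agent or injury named. The labels do not spell out the abbreviations, and they do not say whether the libraries of a region came from separate or pooled animals, how the cells were sorted or how old the mice were beyond adult. The p-values below therefore measure only the spread between these libraries, which may be technical.

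Endothelial cells line the vessels of the heart and the inner surface of its chambers, and they differ between arteries, capillaries, veins, lymphatics and the endocardium. They exchange guidance cues such as Slit and Robo proteins, matrix proteins and complement factors with the fibroblasts, pericytes and muscle cells around them. A tissue dissociation followed by enrichment can also carry RNA of those neighbours, of blood cells, or of the mesothelium that covers the heart, so lists of their marker genes are described beside the endothelial ones. In bulk RNA, more cells of a type and more RNA per cell cannot be told apart.

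Each library held between 21590400 and 27720154 counts over genes, and between 14384 and 15338 genes were detected. Levels are in CPM, a gene's counts relative to the library's total, with totals scaled between libraries by edgeR's TMM factors. Differences are log2 fold changes of LV over the others from edgeR's quasi-likelihood test. On principal components of all tested genes, VS 1 and VS 2 lay at opposite ends of the first (22.2% of the variance), LV 1 lay at one end of the second (14%) and Apex 1 at one end of the third (12.3%), so libraries of 3 regions stood apart. Endothelial markers were abundant. All 16 pan-endothelial genes were detected in LV, with summed levels of 20037, 23024 and 19057 CPM in LV 1 to 3, against 18960 to 23109 CPM in the others. Kdr, Pecam1 and Cdh5, a growth factor receptor and 2 junction proteins of endothelium, had log2 differences of 0.21, -0.08 and -0.05, and none of the 16 had an unadjusted p under 0.05. Ptprc, the leukocyte gene for CD45, was at 1.52, 0.91 and 1.23 CPM in LV, against 0.379 to 1.44 CPM in the others.

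Few genes passed as different between LV and the other regions, which does not show that the rest were equal. Of 13542 genes tested, 3 passed an adjusted p of 0.05, which is 0.0222%, and all 3 were higher in LV: the guidance ligand gene Slit3, the complement gene C7 and the mesothelial gene Msln. With edgeR, 0 genes (0%) passed as lower, against 5 with DESeq2 and 0 with voom. At an unadjusted p under 0.05 there were 482 higher genes (3.56%) and 195 lower ones (1.44%); with total count scaling the split was 550 higher and 113 lower. In 77 genes (0.569%) all 3 LV libraries lay above all 9 others, and in 30 (0.222%) all 3 lay below. Over all genes 48.6% had a difference above 0, with a median of -0.0080.

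Slit3 encodes a secreted ligand of Robo receptors that guides migrating cells and vessels, and lies at chr11:35121456-35708507 on GRCm38. It was at 10.6, 7.96 and 10.4 CPM in LV 1 to 3, against a lowest of 3.00, a median of 3.22 and a highest of 5.46 CPM in the 9 others. Every LV library lay above every other library. Slit3 averaged 9.62 ± 1.45 CPM in LV (SD, n = 3) and 3.82 ± 0.911 CPM in the others (SD, n = 9), a log2 difference of 1.33 ± 0.20 (SE; edgeR adjusted p = 0.0248). The other regions did not share 1 level: the mean was 3.12 ± 0.091 CPM in Apex, 3.63 ± 0.96 in VS and 4.71 ± 0.65 in OR (SD, n = 3 each), and LV was higher than each by 1.63, 1.39 and 1.03 on the log2 scale. Of these 3 contrasts only that with Apex passed by itself (adjusted p = 0.0289; 0.219 for VS and 0.288 for OR). The call was lost without LV 1 (adjusted p = 0.426), LV 3 (0.146), Apex 2 (0.0717), Apex 3 (0.118), VS 2 (0.0516) or VS 3 (0.0563), while the log2 difference stayed between 1.26 and 1.45 whichever library was left out. It was also lost with the replicate number as a block (0.054), with edgeR's legacy method (0.0988), and with Apex (0.256) or OR (0.0721) left out of the other side.

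C7 encodes a terminal complement component of the membrane attack complex and is a marker of heart fibroblasts; it lies at chr15:4987750-5063773. C7 was at 12.3, 6.14 and 18.7 CPM in LV 1 to 3, against a lowest of 0.617, a median of 2.32 and a highest of 4.53 CPM in the others. The groups did not overlap, and LV 3 was the highest library. The means were 12.4 ± 6.29 CPM in LV and 2.38 ± 1.43 CPM in the others, a log2 difference of 2.39 ± 0.38 (adjusted p = 0.0494). The difference was 1.82 over Apex, 3.10 over VS and 2.57 over OR, none passing by itself. Without LV 1, LV 3, Apex 2, Apex 3, VS 2, VS 3, OR 2 or OR 3 the adjusted p was 0.426, 0.318, 0.0922, 0.120, 0.0595, 0.116, 0.128 and 0.0694 in that order, with log2 differences from 1.96 to 2.71 over all 12 omissions. The call was also lost with the replicate block (0.054), with the legacy method (0.314), with no filter on low counts (0.0691) or at least 1 CPM in 3 libraries (0.0804), and with Apex (0.0966), VS (0.0866) or OR (0.207) left out.

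Msln encodes mesothelin, a surface protein of the mesothelium that covers the heart, and lies at chr17:25748613-25754378. It was at 3.71, 0 and 2.65 CPM in LV 1 to 3, from 100, 0 and 69 counts, against a lowest and a median of 0 and a highest of 0.455 CPM in the others. The groups overlapped: LV 2 had no count, which at this depth allows up to 0.119 CPM (3 counts), so the call was carried by LV 1 and LV 3. The log2 difference was 4.31 ± 0.73 (adjusted p = 0.0228). It was lost without LV 1 (0.57), LV 3 (0.146), Apex 2 (0.0717), VS 2 (0.0516) or VS 3 (0.0563), and also with DESeq2 (0.982), voom (0.489), the legacy method (0.596) and 1 mean per region (0.0584), and with VS (0.0866) or OR (0.258) left out.

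Nppa, the gene for atrial natriuretic peptide and a hallmark of atrial muscle, had the fourth smallest p among the genes with no overlap that the rule names, after Slit3, C7 and Medag, and did not pass. It was at 16.4, 9.86 and 14.8 CPM in LV, against a lowest of 1.40, a median of 3.67 and a highest of 8.66 CPM in the others. All LV libraries lay above OR 1, the highest of the others. The log2 difference was 1.88 ± 0.34 (adjusted p = 0.126), and it was 2.21 over Apex, 1.90 over VS and 1.57 over OR. The gene lies at chr4:148000722-148002074. Nppa did pass with DESeq2 (0.0191), with voom (0.0265), and without LV 2 (0.0396), VS 1 (0.0442) or OR 1 (0.0261).

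The promoters of Slit3 and C7, which passed, and of Nppa, which did not, are shown so that their start regions can be compared. The promoter table held no window for Msln. Each window is from RefSeq on GRCm38.p6, 250 bases before to 50 after the start, written on the gene's strand. The windows were searched on both strands for the core promoter box TATAAA, for the upstream box CCAAT, and for the binding letters of Sp factors, GGGCGG. The different motifs did not overlap, capitals mark every match, and the 3 motifs were chosen after values were seen. Slit3 at chr11:35121206-35121505 (plus strand), C7 at chr15:5063724-5064023 (minus strand) and Nppa at chr4:148000472-148000771 (plus strand) read as follows.
Slit3: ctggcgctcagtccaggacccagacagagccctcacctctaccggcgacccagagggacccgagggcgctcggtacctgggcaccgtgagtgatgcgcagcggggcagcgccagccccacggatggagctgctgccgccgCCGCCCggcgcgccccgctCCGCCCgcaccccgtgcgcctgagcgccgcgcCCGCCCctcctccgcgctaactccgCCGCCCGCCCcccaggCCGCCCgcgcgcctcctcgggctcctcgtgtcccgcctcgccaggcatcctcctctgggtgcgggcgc
C7: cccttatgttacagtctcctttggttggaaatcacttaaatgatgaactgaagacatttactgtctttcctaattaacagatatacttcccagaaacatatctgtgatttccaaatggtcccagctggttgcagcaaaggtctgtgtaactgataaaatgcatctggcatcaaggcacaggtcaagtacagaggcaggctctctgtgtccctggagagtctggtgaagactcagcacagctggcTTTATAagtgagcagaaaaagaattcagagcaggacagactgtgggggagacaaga
Nppa: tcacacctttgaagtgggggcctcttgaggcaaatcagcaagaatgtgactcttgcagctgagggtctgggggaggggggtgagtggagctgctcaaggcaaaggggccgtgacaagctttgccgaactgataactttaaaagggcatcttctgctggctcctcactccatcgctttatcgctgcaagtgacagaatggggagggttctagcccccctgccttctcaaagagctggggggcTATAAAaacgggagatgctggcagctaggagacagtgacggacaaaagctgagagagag
The Slit3 window held GGGCGG at 6 places, all on the other strand and therefore printed as its complement, and 2 of them overlap. Windows with GGGCGG made up 64.2% of the 10467 promoters of tested genes and 35.9% of all 27025 in the table. C7 and Nppa each held 1 TATAAA, at base 245 of the window on the other strand and at base 242 on the gene strand. These matches are at positions -6 and -9 from the annotated starts of C7 and Nppa. TATAAA was in 7.30% of the promoters of tested genes and 14.2% of all. CCAAT, in 38.6% and 37.9%, was in none of these 3 windows. Windows of Myl7 and Medag were searched as well and are not shown. That of Myl7 held 1 CCAAT, and those of Medag held none of the 3 motifs. These are matches of letters, not measured binding sites.

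**Figure D1:**
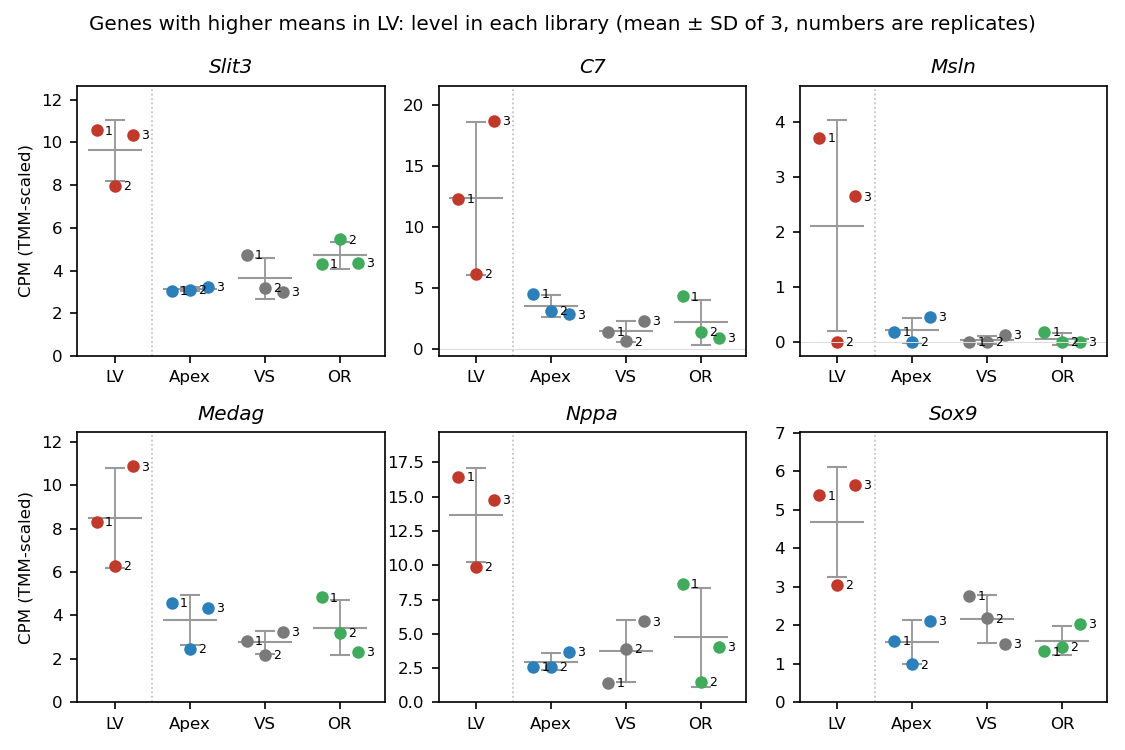
Level in CPM (linear axis) of Slit3, C7, Msln, Medag, Nppa and Sox9 in each of the 3 LV, 3 Apex, 3 VS and 3 OR libraries; numbers are replicates, and bars are mean ± SD of 3. LV points lie above all others in each panel but that of Msln, where LV 2 is at 0.

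The plot of single libraries shows the same order in most panels: LV 1 and LV 3 are high and LV 2 is the lowest LV library. Of the genes higher in LV with no overlap, a change of at least 1.5-fold and at least 2 CPM, the 10 with the smallest p after Slit3 and C7 did not pass. Medag, a gene named for adipocyte differentiation in mouse mesenteric fat, was at 8.30, 6.29 and 10.9 CPM in LV, against 2.18 to 4.83 CPM (median 3.20) in the others. Its log2 difference was 1.36 ± 0.24 (adjusted p = 0.0945), and it passed with DESeq2 (0.00384). Sox9, a transcription factor of cartilage and heart valve cells, was at 5.37, 3.05 and 5.64 CPM in LV, against 0.984 to 2.77 CPM (median 1.60) in the others. Its log2 difference was 1.39 ± 0.27 (adjusted p = 0.170). Sox9 passed with DESeq2 (0.0241), with voom (0.0297), and without LV 2 (0.0228) or VS 1 (0.0346).

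The others named by the same rule were mostly matrix or secreted proteins. Col14a1, a fibril-associated collagen, was at 9.82, 5.03 and 9.63 CPM in LV, against 1.40 to 4.38 CPM in the others (log2 difference 1.47, adjusted p = 0.170). It passed with DESeq2 (0.0455), with voom (0.0313) and without LV 2 (0.0296). Mfap4, a microfibril protein, was at 42.7, 24.3 and 37.8 CPM in LV, against 2.69 to 23.8 CPM in the others (1.56, adjusted p = 0.308). Fstl3, a secreted inhibitor of activins, was at 6.71, 5.34 and 6.29 CPM in LV, against 2.24 to 4.11 CPM in the others (0.89, adjusted p = 0.222). Fstl3 passed with DESeq2 (0.0455) and with voom (0.0482). Serpina3n, a protease inhibitor with close copies in its gene cluster whose reads may be split between them, was at 2.89, 2.93 and 8.63 CPM in LV and 0.341 to 2.46 CPM in the others (1.84, adjusted p = 0.222). Hspa4l, a chaperone of the Hsp110 family, had its highest LV value in LV 2: 25.8, 30.1 and 27.4 CPM in LV, against 10.8 to 21.4 CPM in the others (0.72, adjusted p = 0.283). Susd2 had a log2 difference of 0.88 (adjusted p = 0.277), and Lrrc55, an auxiliary subunit of BK potassium channels, one of 1.08 (adjusted p = 0.342).

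**Figure D2:**
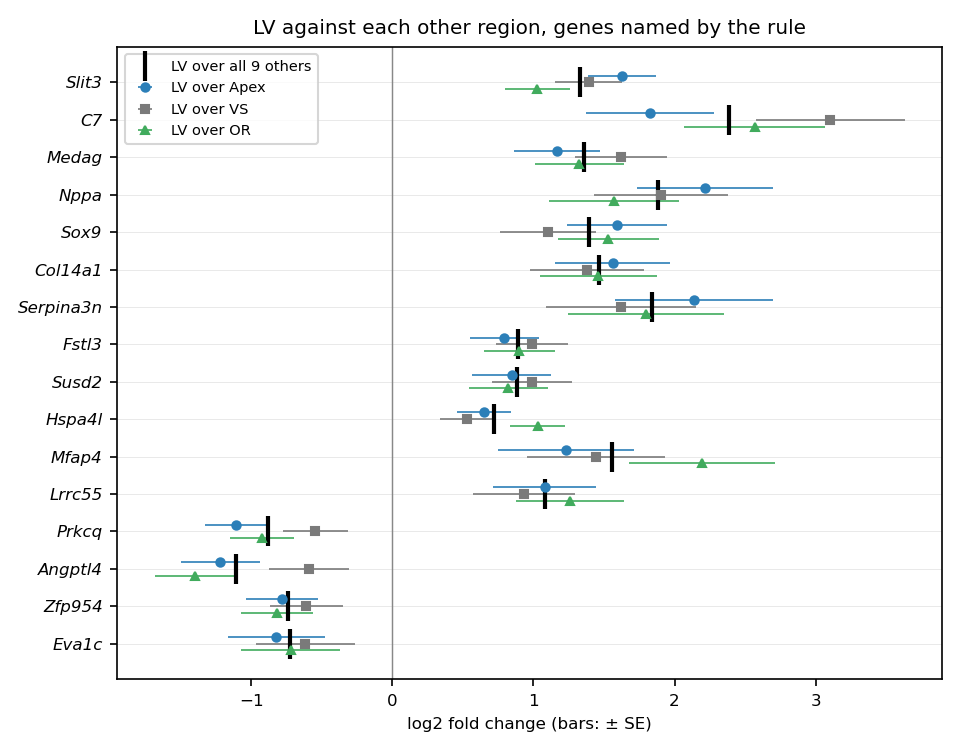
Log2 fold change of LV over Apex, VS and OR taken separately (points, bars ± SE, from a model with 4 region means) and over all 9 others (black ticks) for the 16 genes named by the rule apart from Msln. The 3 contrasts share the LV libraries; for Slit3 they are 1.63, 1.39 and 1.03.

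In the plot by region, each of the 12 genes higher in LV had a positive difference over Apex, over VS and over OR, and each of the 4 lower ones a negative difference over all 3. The rule asked for no overlap, which fixes these signs almost entirely, so they add nothing to the test. The sizes are what the plot adds. C7 differed least over Apex and most over VS, Hspa4l and Mfap4 differed most over OR (1.03 and 2.20), and the lower genes Prkcq and Angptl4 differed least over VS (-0.54 and -0.59).

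Of the genes lower in LV, only 4 met the rule's fold, level and no overlap, and none passed. Angptl4, a secreted inhibitor of lipoprotein lipase that capillary endothelium uses to set fatty acid uptake, was at 25.9, 35.1 and 29.1 CPM in LV, against a lowest of 40.6, a median of 54.3 and a highest of 127 CPM in the others. All LV libraries lay below VS 3, the lowest of the others. The log2 difference was -1.11 ± 0.30 (adjusted p = 0.394); DESeq2 called it (0.0455). Prkcq, protein kinase C theta, was at 4.0, 3.52 and 4.33 CPM in LV, against 5.01 to 9.09 CPM (median 6.98) in the others, a log2 difference of -0.88 ± 0.22 (adjusted p = 0.328; 0.0466 with DESeq2). The zinc finger gene Zfp954 had a log2 difference of -0.74 (adjusted p = 0.429). Eva1c, whose worm counterpart is a co-receptor for Slit, was at 3.56, 3.17 and 2.61 CPM in LV, against 3.69 to 8.50 CPM in the others (-0.72, adjusted p = 0.807).

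**Figure D3:**
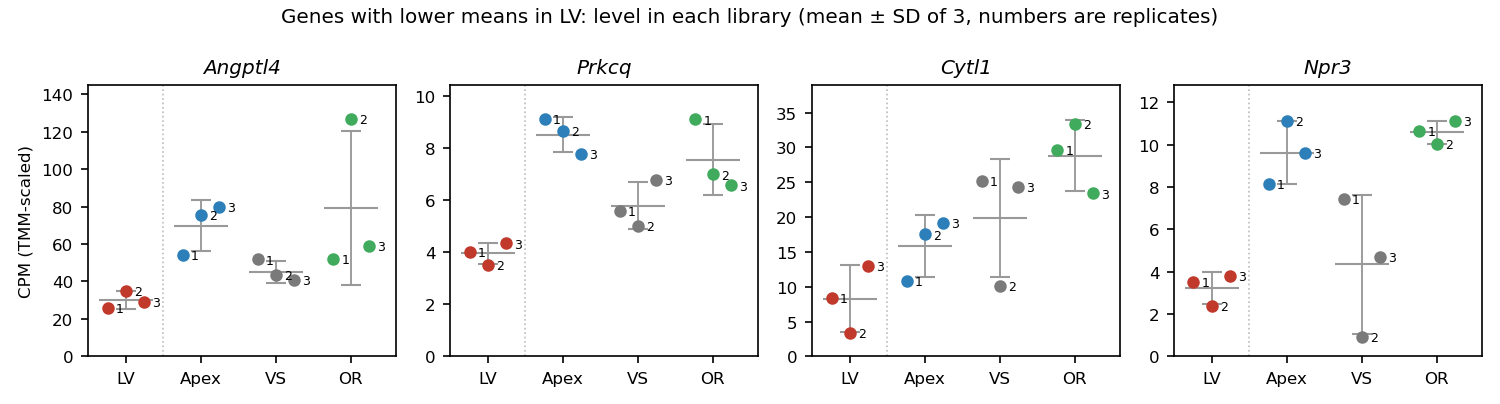
Level in CPM (linear axis) of Angptl4, Prkcq, Cytl1 and Npr3 in each LV, Apex, VS and OR library; numbers are replicates, and bars are mean ± SD of 3. For Angptl4 and Prkcq the LV points lie below all others; for Cytl1, Apex 1 and VS 2 lie within the LV range, and for Npr3, VS 2 lies below it.

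Cytl1 and Npr3, which are rich in endocardium, had the largest negative differences of the endocardial list. Cytl1, a secreted cytokine-like protein, was at 8.34, 3.40 and 13.0 CPM in LV, against 10.2 to 33.4 CPM (median 23.4) in the others. Npr3, the clearance receptor of natriuretic peptides, was at 3.52, 2.37 and 3.80 CPM in LV, against 0.904 to 11.1 CPM (median 9.62) in the others. Its low values among the others were in VS, which averaged 4.34 CPM, against 9.62 in Apex and 10.6 in OR. The log2 differences were -1.38 ± 0.39 and -1.34 ± 0.46 (adjusted p = 0.429 and 0.713); with VS left out of the other side, Npr3 passed (-1.64, adjusted p = 0.0121). Of the 11 endocardial genes tested, 2 were higher and 9 lower, with a median of -0.06. Over all genes tested, 48.6% had a difference above 0, and 1.44% were lower with an unadjusted p under 0.05 in edgeR's test. Tmem108 (-0.98) was the third with an unadjusted p under 0.05 below, and Postn (0.88) stood above. Nfatc1 and Plvap, a transcription factor and a diaphragm protein of endocardium, were at 0.05 and -0.02.

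Fibroblast genes had higher means in LV in all 15 cases, 12 with an unadjusted p under 0.05, but only C7 passed, and 2 had no overlap. Their median log2 difference was 0.84, beside -0.0080 over all genes tested. Over all genes, 48.6% had a difference above 0, and 3.56% were higher with an unadjusted p under 0.05 in edgeR's test. In 0.569% all LV libraries lay above all others. The same shares, with the 1.44% that were lower with an unadjusted p under 0.05, are the background for the counts in the lists below. Col1a1, the main chain of fibrillar collagen I, was at 86.4, 64.9 and 159 CPM in LV, against 26.2 to 74.3 CPM (median 40.8) in the others. Its log2 difference was 1.19 ± 0.28 (adjusted p = 0.277). LV 2 lay below OR 1, the highest of the others. The fibulin Fbln1 (1.16), the anti-angiogenic serpin gene Serpinf1 (1.02) and the small proteoglycan gene Dcn (0.84) had similar differences, while Tcf21 and Pi16, a fibroblast transcription factor and a marker of adventitial fibroblasts, were at 0.35 and 0.28. The summed level of the list was 1682, 1176 and 2649 CPM in LV 1 to 3, against a range of 632 to 2106 CPM in the others, so OR 1 exceeded LV 1 and LV 2, and Apex 1 exceeded LV 2. Without LV 3 the median was 0.52, and without OR 1 it was 1.02.

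The atrial muscle list also had higher means in LV in all of its 7 measured genes, with a median of 1.38 and 5 genes with an unadjusted p under 0.05, but none passed. Myl7, the atrial myosin regulatory light chain, was at 13.1, 6.29 and 7.71 CPM in LV, against a lowest of 0, a median of 1.75 and a highest of 9.16 CPM in the others. VS 3 lay within the LV range, while the Apex libraries had 3, 0 and 1 counts. The log2 difference was 2.18 ± 0.69 (adjusted p = 0.611), and with each region given its own mean it passed (3.67, adjusted p = 0.0137). Taken by region, Myl7 differed by 7.40 over Apex, 0.99 over VS and 2.62 over OR. Of these only the contrast with Apex passed by itself (edgeR adjusted p = 0.00649, against 0.998 for VS and 0.288 for OR). Sln, a small inhibitor of the calcium pump, was at 5.37, 1.62 and 2.42 CPM in LV and 0 to 2.74 CPM in the others, with 0 counts in all 3 Apex libraries. Dkk3, a secreted protein of the Dickkopf family, was at 15.7, 6.29 and 9.59 CPM in LV, against 1.97 to 7.47 CPM in the others (1.38, adjusted p = 0.359). The atrial myosin light chain gene Myl4 had a difference of 1.05 (adjusted p = 0.385). Kcnj3, an atrial potassium channel gene, and Stard10 were at 0.57 and 0.42. The summed list was at 69.5, 34.0 and 45.0 CPM in LV 1 to 3, against 10.4 to 35.9 CPM in the others. VS 3 lay just above LV 2.

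Ventricular muscle genes did not show this pattern. Of 18 ventricular muscle genes 4 were higher and 14 lower, with a median of -0.17 and none with an unadjusted p under 0.05. Their summed level was 1893, 2388 and 2158 CPM in LV, against 1086 to 4473 CPM in the others. Myl2 and Myh6, the ventricular light chain and the main adult mouse myosin heavy chain, had differences of -0.30 and -0.19. Nppb, the other heart natriuretic peptide, was at 0.13.

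Of the mesothelial list, 5 genes were seen mainly in LV 1 and LV 3, while the summed list was not. Of 10 listed genes 6 were tested, and the uroplakin genes Upk3b and Upk1b, Lrrn4 and Muc16 were removed by the filter on low counts. Upk3b had 169, 0 and 120 counts in LV 1 to 3, against 0 to 4 in each of the others. Lrrn4 had 91, 0 and 32 counts in LV, against 0 to 3. Upk1b had 23, 0 and 14 counts in LV, against 0 to 8, and Muc16 had 12, 0 and 0 in LV against 0 in all others. Summed with Msln, these 5 genes gave 395, 0 and 235 counts in LV and 0 to 21 in the others. LV 1 and LV 3 were thus high and LV 2 was at 0. Krt19, an epithelial keratin, was at 3.48, 0.554 and 0.729 CPM in LV and 0.111 to 1.30 CPM in the others. Wt1, which endothelium also expresses, was at 72.8, 91.1 and 84.1 CPM in LV, against 55.8 to 118 CPM, a difference of 0.10. The 6 tested genes summed to 90.7, 94.1 and 93.0 CPM in LV 1 to 3, most of it Wt1. In the others the sum was 60.8 to 127 CPM. The median over the 6 tested genes was 0.71, it was -0.15 without LV 1, and it was 2.00 over the 9 that could then be tested without LV 2. With no filter on low counts Upk3b passed (5.90, adjusted p = 4.83e-06).

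**Figure D4:**
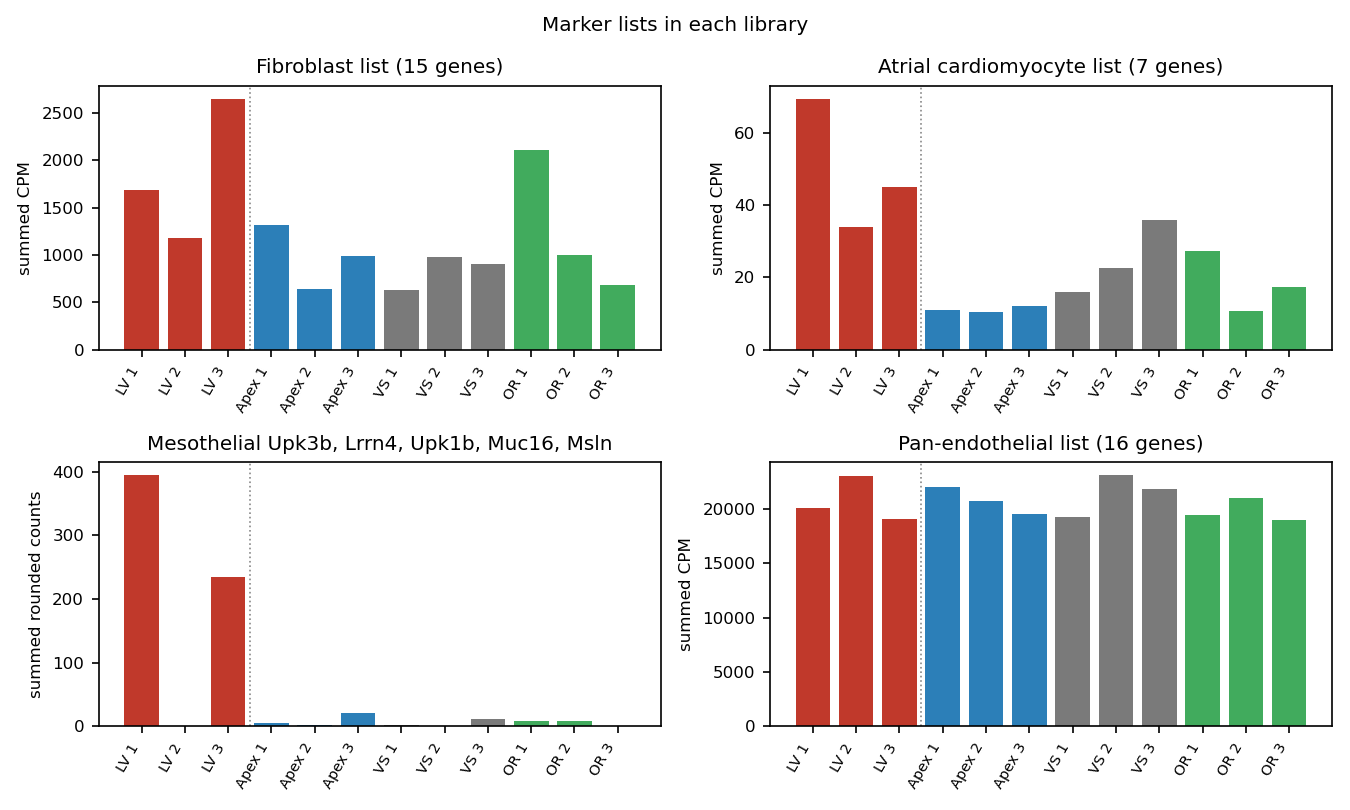
Summed CPM of the fibroblast, atrial cardiomyocyte and pan-endothelial lists and summed counts of 5 mesothelial genes in each library (bars start at 0; 1 bar per library; LV in red, Apex blue, VS grey, OR green). LV 1 leads the atrial and mesothelial sums, LV 3 the fibroblast sum, and the pan-endothelial sums of LV lie within the range of the others.

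As the plot of marker sums shows, the sums peaked in different LV libraries. LV 3 had the highest fibroblast sum, and LV 1 the highest atrial sum and the highest sum of the plotted mesothelial genes. LV 2 had the lowest LV value in all 3. Over the whole tested mesothelial list the order differed: LV 2 was the highest LV library and LV 1 the lowest, at 94.1 and 90.7 CPM. Apex 3 was above both, at 127 CPM. The part of these marker lists in the Slit3, C7 and Nppa differences was not tested.

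Among the Slit and Robo genes, Slit3 was the only one of 8 tested that passed. Robo2, a receptor of Slit ligands, was at 8.52, 7.76 and 9.24 CPM in LV, against 2.73 to 6.67 CPM (median 5.06) in the others, with no overlap (0.81 ± 0.23, adjusted p = 0.429). Robo4, the endothelial member, and Robo1, the receptor of wide expression, were at 0.03 and 0.59, and the ligand gene Slit2 was at -0.03. The median of the list was 0.23.

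Complement genes had higher means in 12 of 14 tested, with a median of 0.46; C7 passed, and 6 had an unadjusted p under 0.05. C3, the central component, was at 25.1, 22 and 60.7 CPM in LV, against 5.38 to 24.4 CPM in the others (1.65 ± 0.36, adjusted p = 0.254). OR 1, the highest of the others, lay above LV 2. C4b was at 5.48, 4.39 and 7.36 CPM in LV, against 0.607 to 5.12 CPM in the others (1.54, adjusted p = 0.429). Its near-identical copy C4a had at most 16 counts in any library, so the split of reads between the pair is uncertain. Cfb, a protease of the alternative pathway, had a difference of 0.67, the inhibitor gene Serping1 one of 0.60 and the protease gene C1ra one of 0.43. The surface inhibitor gene Cd59a (-0.18) and C1qa of macrophages (-0.32) were on the lower side.

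Of 22 collagen chains 18 had higher means and none passed, with a median of 0.36 that was 0.20 without LV 3. The fibril-associated Col14a1 was at 1.47, and the fibrillar chains Col1a1, Col3a1 and Col1a2 were at 1.19, 1.19 and 0.89. Col4a5 of basement membranes was at 1.07, but Col4a1 and Col4a2, the main chains of vascular basement membrane, were at -0.08 and -0.05. The anti-angiogenic endostatin comes from Col18a1, which was at -0.23. Summed over the list, which Col4a1 and Col4a2 fill in large part, LV had 4426, 5090 and 3934 CPM, against 2983 to 5593 CPM in the others.

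Of 22 other matrix genes 16 had higher means and none passed, with a median of 0.47 that was 0.07 without LV 3. Efemp1, a fibulin of elastic fibres, was at 5.34, 1.5 and 6.10 CPM in LV, against 0.562 to 3.27 CPM in the others (1.92, adjusted p = 0.245). Ccn5, a growth-restraining matricellular protein, was at 7.56, 5.98 and 11.2 CPM in LV, against 0.986 to 6.54 CPM in the others (1.52, adjusted p = 0.277). Sparc and Sparcl1, which endothelium makes in quantity, were at -0.11 and -0.08.

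**Figure D5:**
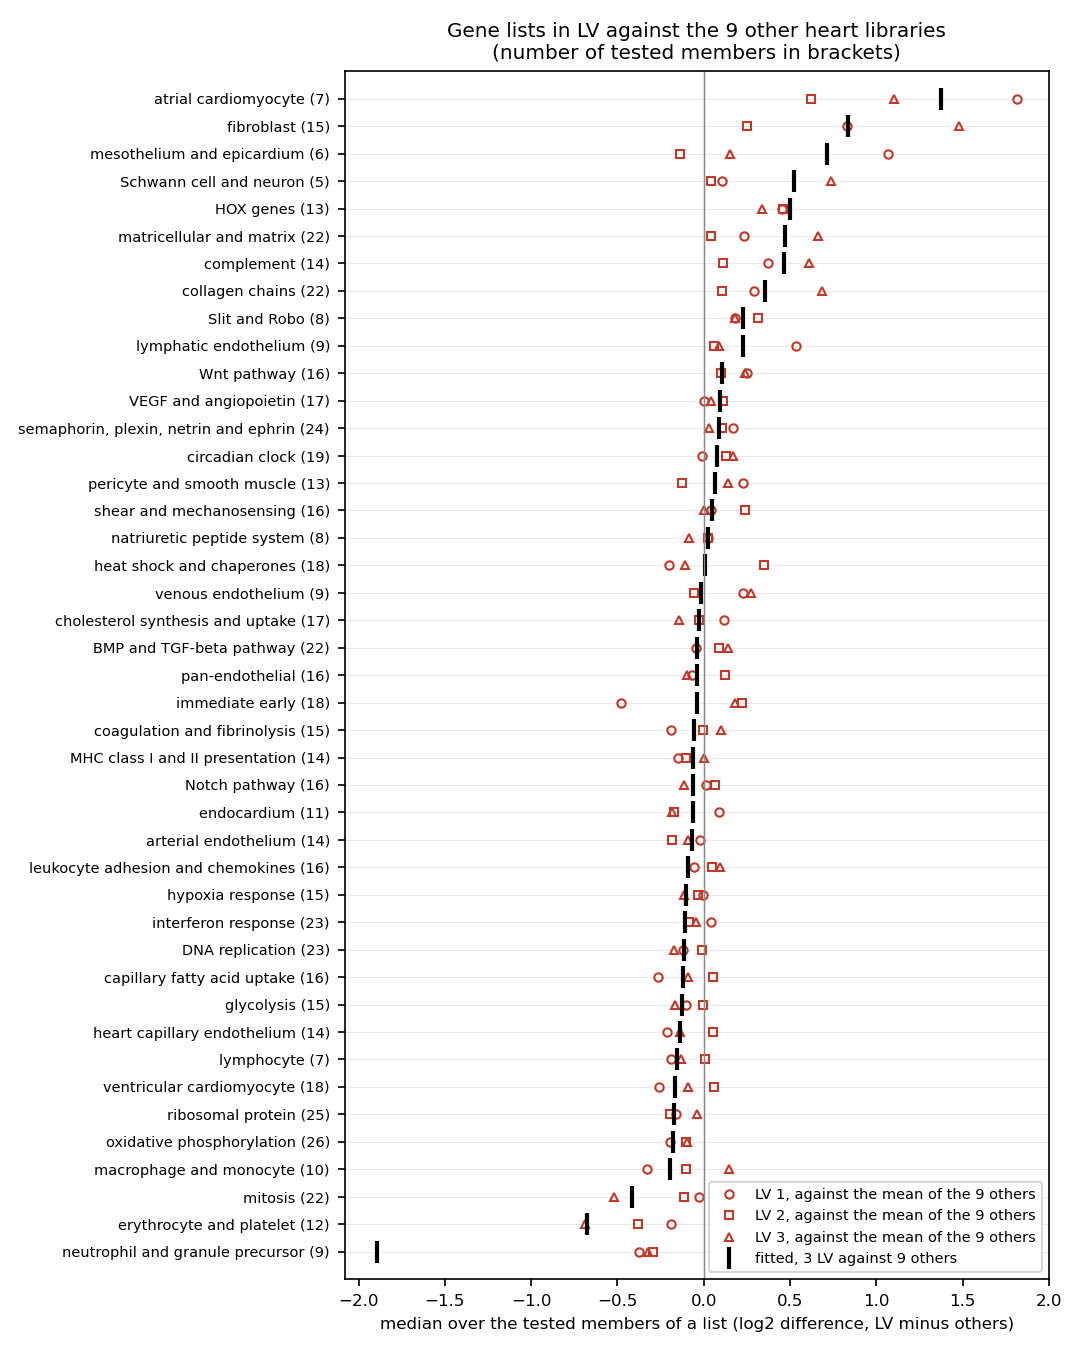
Median log2 difference over the tested members of 43 gene lists (number of members in brackets): fitted for 3 LV against 9 others (black ticks) and for LV 1, LV 2 and LV 3 each against the mean of the others (open symbols). Of the 43 medians 30 lie within 0.2 of 0; the atrial muscle list is the highest, at 1.38, and the neutrophil list the lowest, at -1.90.

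The plot of lists covers 643 listed genes, of which 602 were tested. For 30 of the 43 lists the median lay within 0.2 of 0, 4 lists held a gene that passed (C7 is in 2 of them), and in 3 lists every tested gene had a higher mean: those of fibroblasts, of atrial muscle, and of Schwann cells and neurons. In the list of Schwann cells and neurons 5 genes were tested, with a median of 0.52 that was -0.01 without LV 3. Its glial transcription factor gene Sox10 was at 1.23 and the potassium channel gene Kcna1 at 0.97 (adjusted p = 0.956 and 0.898), while the neuronal gene Stmn2 and the glial gene S100b were at 0.02 and 0.01. Its summed level was 76.2 to 92.7 CPM in LV, against 60.3 to 111 CPM in the others. The capillary, arterial and venous endothelial lists were among those within 0.2 of 0. Heart capillary genes had a median of -0.14 with none of 14 at an unadjusted p under 0.05, arterial genes -0.07 and venous genes -0.02, and among the venous ones Bgn, a proteoglycan that fibroblasts also make, was at 0.66. Of 16 fatty acid uptake genes 11 had lower means, with a median of -0.12. Cd36 (-0.13), Fabp4 (-0.15) and Gpihbp1 (-0.21), which take up and carry fatty acids or hold lipoprotein lipase, were closer to 0 than Angptl4 (-1.11). Lymphatic genes had a median of 0.23, which was 0.03 without LV 1, with Prox1, the lymphatic transcription factor, at 0.38 and the surface protein gene Pdpn, which fibroblasts and mesothelium also express, at 1.06 (adjusted p = 0.461).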

How the data were processed

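The 12 heart libraries were analysed; the 6 liver libraries of the series were not used here. Per the labels' protocols, poly(A) RNA was copied from oligo(dT) primers, amplified by PCR and sequenced as paired ends (MGISEQ-2000RS). The build was mm10, per the submitters' processing notes; the aligner, the counting program and its use of strand are not given in the sources used here. Per the file headers, the authors deposited a read count and a TPM for each library over 17513 genes. The deposited counts are expected counts that the authors estimated per gene without normalization; 80.8% to 83.5% per library were exactly whole (no tolerance); they were rounded. The TPM values deposited by the authors, scaled for length and depth, entered no test. The columns named OZ are those of the samples titled OR.

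The main test was edgeR 4.0.16 (R 4.3.3): default low-count filter, TMM scaling, robust quasi-likelihood F test of LV against the 9 others pooled, Benjamini-Hochberg adjustment over 13542 genes, threshold 0.05. The SE was derived from the fold change and its F statistic. Gene names and coordinates are from RefSeq on GRCm38.p6, which matched 13507 tested genes by gene ID. Named genes were up to 12 in each direction by smallest p, with at least 1.5-fold change, at least 2 CPM in the higher side and no overlap; those short of the threshold are said not to have passed. Msln passed but its groups overlap. Predicted genes were counted, not named; list members may be named whatever their values. Lists are described by counts and medians with no test, and 1 listed gene was left out and is not reported here. The members and the lists were chosen with earlier results of these data known. Alternatives were DESeq2 1.42.0, limma 3.58.1 voom with quality weights, edgeR's legacy method, a replicate block, 1 mean per region, other scaling and filters, and omission of each region and library. The workflow was also run on simulated counts with known changes in LV. Those counts held no differences among the other regions, so that run cannot vouch for the calls made here.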

Additional observations from a re-analysis of the deposited data

Results flagged for a closer look

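Single libraries among the 9 others lay far from the rest in 6 of 66 sets of values looked at, 23 genes and 43 list sums. Chance alone gives about 1 in 20 only for independent normal values. The 9 libraries came from 3 regions and the sets share genes, so that rate does not apply here. Each is given as a value with no explanation. Angptl4 was at 126.6 CPM in OR 2, and the next highest was 79.8 CPM. Pecam1 was at 2252 CPM in Apex 1, against 1939 CPM in the next. Myl7 was at 9.16 CPM in VS 3, against 3.08 CPM in the next. Msln was at 0.455 CPM in Apex 3, against 0.189 CPM in the next. The summed fibroblast list was at 2106 CPM in OR 1, against 1311 CPM in the next. The summed hypoxia list was lowest in OR 3, at 3451 CPM, and the next lowest was 3891 CPM.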

How the results depend on the processing

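The count of genes past the threshold, 3 as reported, was 3 with 1 mean per region, with RLE and with total count scaling; with region means they were Myl7, Slit3 and C7. It was 13 with DESeq2 (8 higher and 5 lower), 14 with voom (all higher), 0 with the legacy method, 5 with no filter and 1 with at least 1 CPM in 3 libraries. It was 0 with Apex left out of the other side, 10 with VS left out (8 higher and 2 lower) and 0 with OR left out. Leaving out 1 library gave between 0 and 29 calls: 29 without LV 2, 15 without VS 1, 7 without OR 1, 3 without Apex 1 or OR 3, 2 without OR 2, and 0 without LV 1, LV 3, Apex 2, Apex 3, VS 2 or VS 3. The 29 without LV 2 were all higher in LV and included Upk3b, Lrrn4, Msln, C7 and Slit3. The causes were not tested. Slit3 passed in 14 of 24 alternatives, with log2 differences from 1.20 to 1.49, C7 in 9 of 24 (1.96 to 2.82) and Msln in 10 of 21 (3.56 to 4.87); none changed sign. With the replicate number as a block, 1 gene passed, Msln. Same-numbered libraries of different regions had correlations of their deviations from -0.0572 to 0.235, with 4 of 18 pairs over 0.1, and those of different numbers from -0.17 to 0.178. The main test was set up without pairing the libraries by number, with the 9 others as one side. These correlations cannot exclude a pairing, and whether the numbers mark shared animals or batches is not told by the labels. Depth limits the genes at a few CPM: Slit3 rests on 71 to 285 counts per library and Msln on 0 to 100, and counting error does not cover the PCR.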

Other observations

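The HOX list, which also includes Aldh1a2 and Rarb, held no gene that passed. It had 12 of 13 higher means in LV and a median of 0.50, and it split by region: the median was 0.19 over Apex, 1.81 over VS and 0.06 over OR. Its summed level was 53.8, 49.8 and 42.0 CPM in LV, against 18.4 to 30.2 CPM in VS and 42.4 to 54.1 CPM in Apex and OR. LV thus lay with Apex and OR, and VS lay below. Hoxa7 was at 3.67, 2.93 and 2.34 CPM in LV, against 0.288 to 3.83 CPM in the others. The lists of the Wnt pathway, of semaphorins and other guidance genes, and of shear sensing had medians of 0.11, 0.09 and 0.05, and the genes named from them were chosen after their values were seen. Of 16 Wnt pathway genes 12 had higher means and none passed; the secreted modulator genes Sfrp1 and Rspo1 were at 1.34 and 1.36 and the receptor genes Fzd4 and Lrp6 at 0.11 and 0.12. Sema3c, a secreted semaphorin, was at 2.85, 0.396 and 2.57 CPM in LV, against 0.123 to 1.48 CPM in the others (1.86). Piezo2, a mechanically gated channel gene, was at 1.78, 1.5 and 1.65 CPM in LV, against 0.176 to 1.33 CPM in the others, with no overlap (1.12, edgeR adjusted p = 0.583), while Piezo1, Klf2 and Klf4 were at 0.02, -0.01 and 0.01.

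Blood cell and division genes mostly had lower means. Over all genes tested, 48.6% had a difference above 0. Of 12 red cell and platelet genes 10 were lower (median -0.68); the summed level was 2697, 2247 and 1875 CPM in LV, against 1208 to 6648 CPM in the others, VS 1 being the lowest and VS 2 the highest. Reads of the globin copies may be split between them. The neutrophil list had a median of -1.90; taken by region it was -2.25 over Apex, -0.63 over VS and -0.20 over OR. Its sums were 6.34, 6.61 and 4.76 CPM in LV, 19.6 to 22 CPM in Apex, and 3.27 to 11.9 CPM in VS and OR. Chil3 had 0, 10 and 0 counts in LV and 175, 126 and 127 in Apex. Elane, which was not tested, had 0 counts in all LV, VS and OR libraries and 20, 6 and 10 in Apex. Of 22 mitosis genes 20 had lower means (median -0.41; -0.86 over Apex, -0.01 over VS and -0.08 over OR). Mki67 was at 12, 9.74 and 8.40 CPM in LV, against 22.2 ± 0.811 CPM in Apex (SD, n = 3) and 2.18 to 25.2 CPM over all 9 others.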
